A study of Drosophila melanogaster with 4 samples.

Results

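MicroRNA (miRNA) genes were examined for sites visited by Pr-set7, the histone H4 lysine methyltransferase also called SETD8, in neural stem cells of Drosophila melanogaster larvae. The members are all 260 genes of biotype miRNA that the RefSeq gene table of the dm6 assembly places on chromosomes X and 4 and the arms of chromosomes 2 and 3 (2L, 2R, 3L and 3R), out of 17684 genes of all kinds on those arms. Targeted DamID was used, in which the bacterial methylase Dam, alone or fused to a chromatin protein, methylates GATC motifs near the places it visits. The 2 samples used here carried UAS-Dam-Pr-set7 (construct pUASTattB-LT3-NDam-Pr-set7) under the stem cell driver grh-Gal4. Eggs were collected over 6 h and kept at 25 °C, and hatched larvae spent 24 h at 29 °C before dissection. Each sample was assigned to its own batch, together with 1 UAS-Dam sample under the same driver. The replicate numbers that link them follow order of deposit. The UAS-Dam samples were not analysed here, so no position below was compared here with Dam background. Whether the authors used a Dam control when they called these positions is unknown. What was measured is DNA methylation by the fusion protein, and neither the cell type of the DNA nor the expression of any miRNA can be read from it.

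miRNAs are short RNAs cut from hairpin precursors that lower the output of messenger RNAs they pair with, mainly through a short stretch near their 5′ end called the seed. Some of their genes lie inside protein-coding genes and can be cut from the host's transcript, often from an intron, and others have transcripts of their own between genes. In the fly nervous system and in growth control, bantam, the let-7 complex, mir-124, mir-9a, mir-92a and mir-279 are among the best studied.

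The values are summits, single positions of highest signal in a called peak, each with a value from the authors. The files do not name this value, which was read from the layout of the summit lists as the height of the signal in fragments, with no scaling to depth. Dam-Pr-set7 replicate 1 had 2856 summits on the 6 arms (median height 42 fragments, range 12 to 279) and replicate 2 had 4240 (median 37, range 11 to 204). How deeply each library was sequenced is unknown, so heights rank summits within a list, and a height set against that of the other list contains the unknown difference in depth. A gene without a summit had no peak called there, which does not show that the protein was absent. Replicate and batch cannot be told apart. The word reached is used for a miRNA gene whose annotated span was no more than 1000 bp from a summit. The spans were short, with a median of 92 bp (50 to 174 bp), so the window around a miRNA gene was about 2092 bp.

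Summits of both replicates reached 17 of the 260 miRNA genes (6.54%, exact Clopper-Pearson 95% interval 3.85 to 10.3%). These were mir-967, mir-989, mir-993, mir-995, mir-1000, mir-276b, mir-279, mir-307a, mir-307b, mir-2282, mir-2497, mir-2501, mir-3643, mir-4909, mir-4977, mir-4978 and mir-9388. By the same rule, 18.2% of 13922 protein-coding genes and 3.38% of 591 tRNA, snoRNA and snRNA genes were reached in both. Protein-coding genes have a median span of 2163 bp, and a longer span can hold more summits. Counted by their annotated ends alone, 14.3% of protein-coding genes were reached in both. Of all bases on the 6 arms, 2.99% lay within 1000 bp of a summit of each replicate. Within the other short RNA genes the shares were 1.72% of 290 tRNA genes (0.562 to 3.98%) and 5.20% of 269 snoRNA genes (2.87 to 8.58%), and the snoRNA interval overlaps that of the miRNA genes. No test of these differences was run, since neighbouring miRNA genes share summits, and the interval treats them as independent and covers counting error only.

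Replicate 1 alone reached 20 miRNA genes (7.69%, 4.76 to 11.6%), against 22.5% of protein-coding genes. Replicate 2 reached 37 (14.2%, 10.2 to 19.1%), against 28.1% of protein-coding genes. All but 3 of the genes reached in replicate 1 were also reached in replicate 2, whereas 20 genes were reached in replicate 2 only, and 220 in neither. The median distance from a miRNA gene to the nearest summit was 11864.5 bp in replicate 1 and 6661.5 bp in replicate 2, so that most miRNA genes lay several kilobases from any summit. For the tRNA, snoRNA and snRNA genes these medians were 10287 and 8781 bp, shorter than for miRNA genes in replicate 1 and longer in replicate 2.

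**Figure D1:**
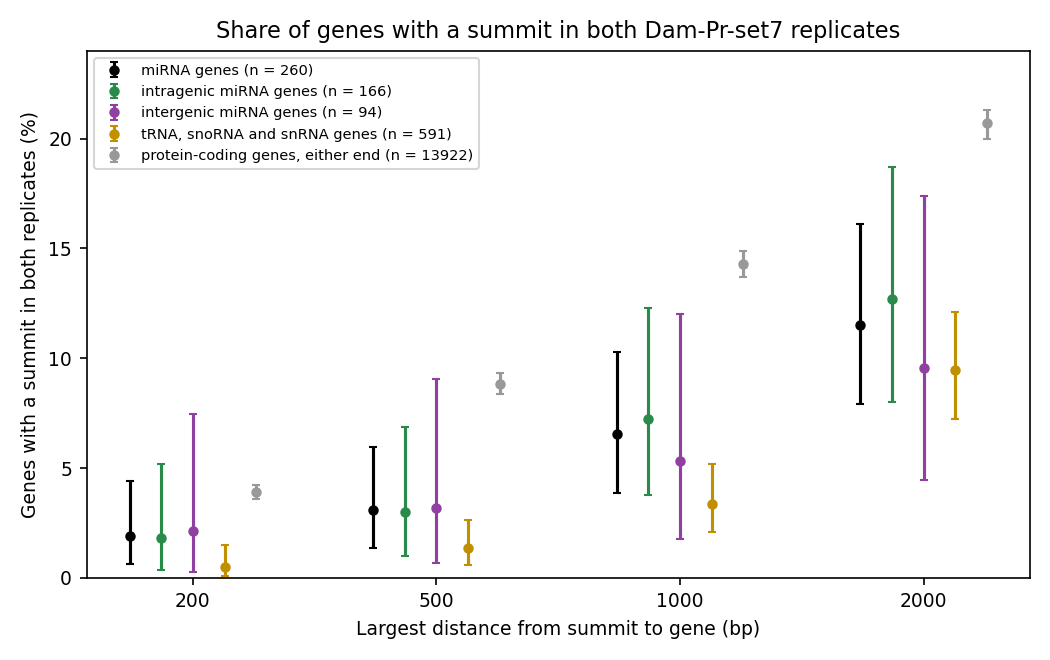
Percentage of genes (y axis) with a summit of both Dam-Pr-set7 replicates within 200, 500, 1000 or 2000 bp (x axis), for miRNA genes, their intragenic and intergenic subsets, other short RNA genes and protein-coding gene ends; bars are exact 95% intervals. At 1000 bp the miRNA share was 6.54%, between 3.38% for tRNA, snoRNA and snRNA genes and 14.3% for protein-coding gene ends, and the intervals of the intragenic and intergenic subsets overlap at every distance.

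Intragenic and intergenic miRNA genes had shares with widely overlapping intervals. Inside the span of a protein-coding gene lay 166 miRNA genes, called intragenic here, and 12 of them (7.23%, 3.79 to 12.3%) were reached in both replicates. Of the 94 intergenic miRNA genes, 5 were reached (5.32%, 1.75 to 12.0%). The shares of bases near summits of both replicates were 3.23% inside protein-coding spans and 2.49% outside them. The gene table used gives no strand and no exons, so that intragenic means inside the span on either strand, and intron, exon or UTR cannot be stated. Of the 94 intergenic genes, 43 lay inside an annotated non-coding gene and 2 overlapped a protein-coding span in part. The order of the subsets was not the same in the single lists. In replicate 1 they stood at 7.83% (intragenic) and 7.45% (intergenic), and in replicate 2 at 13.3% and 16.0%. Median distances to the nearest summit likewise were 9961.5 bp (intragenic) and 15725 bp (intergenic) in replicate 1, but 7435.5 and 6086.5 bp in replicate 2.

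**Figure D2:**
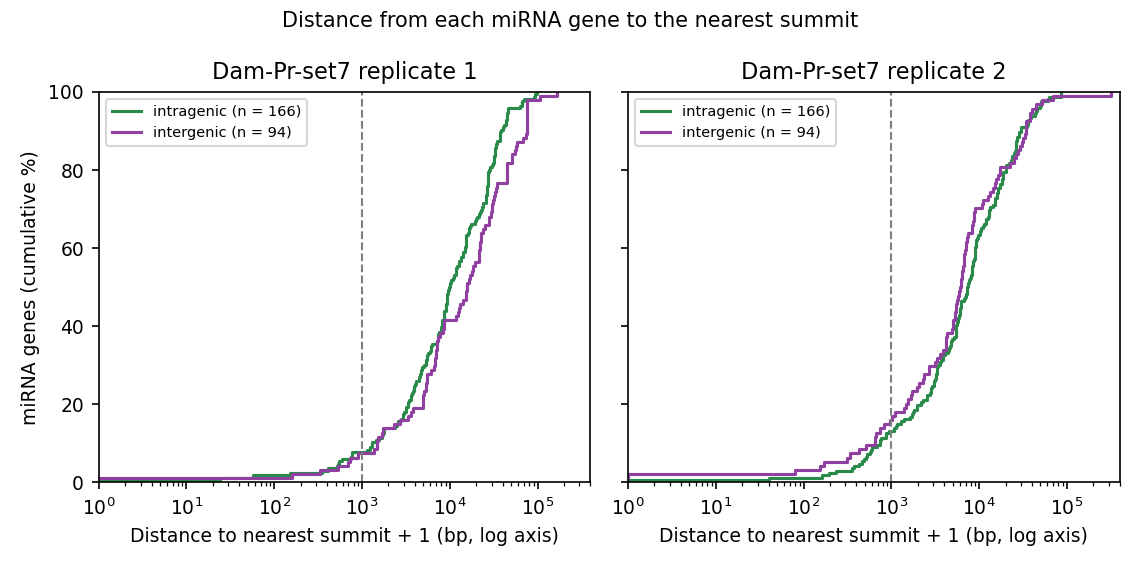
Cumulative percentage of miRNA genes (y axis) by distance to the nearest summit plus 1 bp (x axis, log scale) in each Dam-Pr-set7 replicate; the dashed line marks 1000 bp. The curves of the 166 intragenic and 94 intergenic genes cross, with the intergenic curve farther out in replicate 1 and nearer in replicate 2 at their medians.

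Where both replicates placed a summit at a miRNA gene, they placed it at nearly the same position. The 17 genes rest on 16 distinct pairs of summits, because the overlapping genes mir-307a and mir-307b share one. Each of the 17 genes had a single summit per replicate in its window. The positions in the 2 lists were between 2 and 35 bp apart, with a median of 14 bp, and lay on the same side of the gene in all 17 cases. Across the arms, 69.0% of replicate 1 summits had a replicate 2 summit within 500 bp, and of these 70.0% were within 35 bp, with a median of 22 bp. The limit of 35 bp was taken from the miRNA pairs themselves, all of which lie within it for that reason. The summit fell inside the annotated miRNA gene itself at mir-995 and mir-9388, on the lower-coordinate side at 7 genes and on the higher-coordinate side at 8. At 5 genes it lay within 200 bp in both replicates and at 8 within 500 bp.

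**Figure D3:**
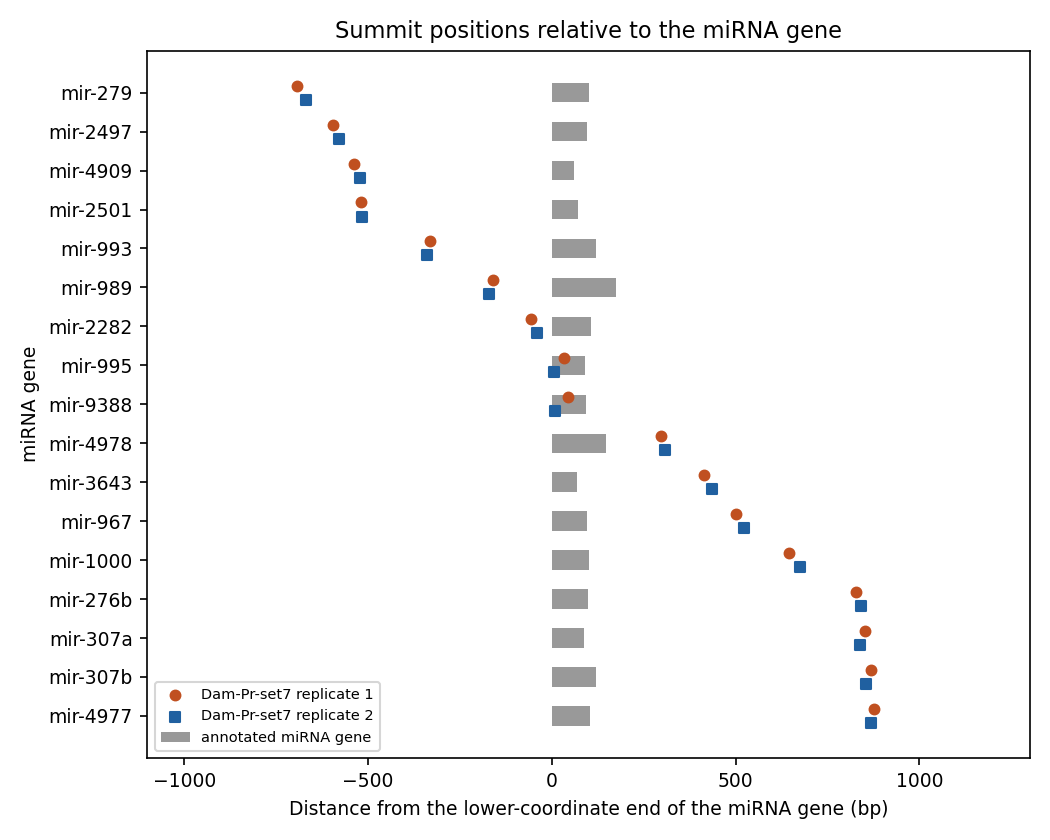
Position of the Dam-Pr-set7 summits (circles, replicate 1; squares, replicate 2) relative to the lower-coordinate end of each miRNA gene in bp (x axis) for the 17 genes reached in both replicates (y axis); grey bars are the annotated miRNA genes. The replicates lie 2 to 35 bp apart at every gene, and the summits of mir-995 and mir-9388 fall on the gene itself.

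The paired summits at miRNA genes lay high in their lists. Over the 16 pairs the median height was 75.5 fragments in replicate 1 (28 to 182) and 85 fragments in replicate 2 (37 to 182). All summits on the arms had medians of 42 and 37 fragments in replicates 1 and 2, and all summits with a partner within 500 bp in the other list had medians of 48 and 56 fragments. The list median was exceeded by 12 of the 16 summits in replicate 1 and by 14 in replicate 2. The height was greater in replicate 1 at 8 pairs, greater in replicate 2 at 7 and equal at 1. Its ratio, replicate 2 over replicate 1, ran from 0.563 at mir-3643 to 1.89 at mir-279, with a median of 0.987.

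**Figure D4:**
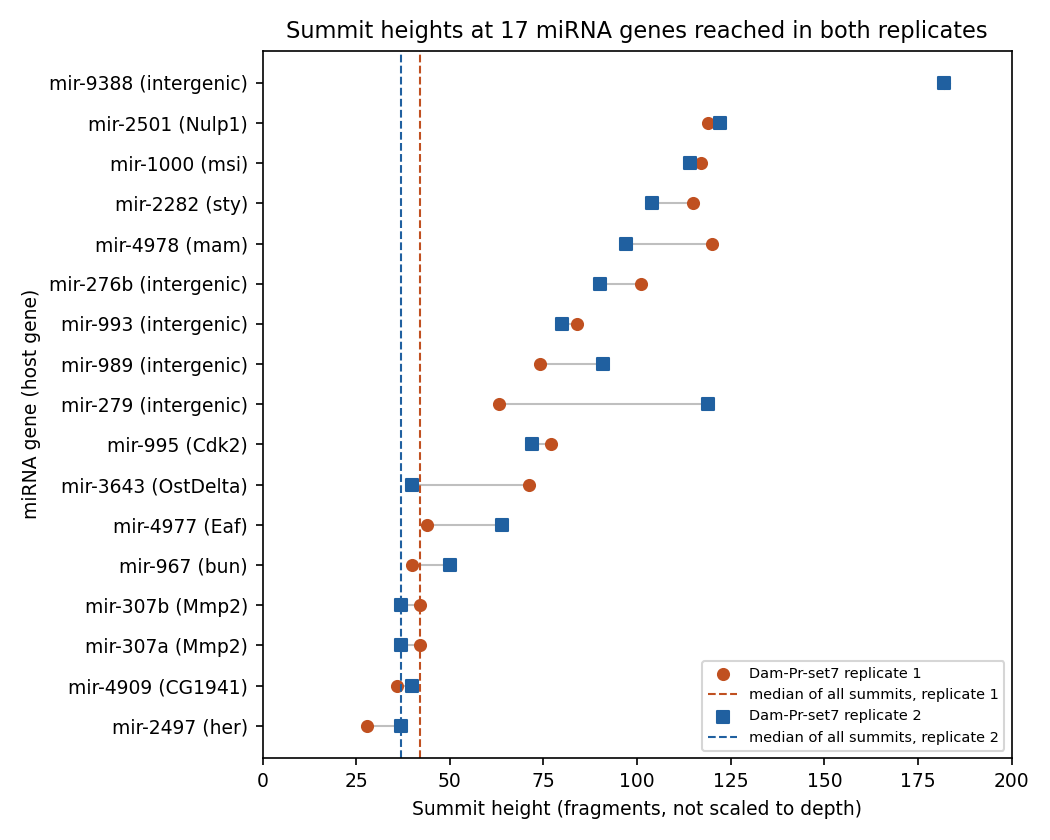
Height in fragments (x axis, not scaled to depth) of the summit at each of the 17 miRNA genes reached in both Dam-Pr-set7 replicates (y axis, host gene in brackets); circles are replicate 1, squares replicate 2, and dashed lines the medians of all summits, 42 and 37 fragments. The points of mir-9388 coincide at 182 fragments, and in replicate 1 mir-2497, mir-4909 and mir-967 lie below the median.

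The highest pair belonged to an intergenic gene, mir-9388 (3L, 22945116 to 22945207). Its summits at 22945160 in replicate 1 and 22945125 in replicate 2 both had 182 fragments, at percentiles 97.0 and 99.0 of their lists. They lay inside the miRNA gene. The nearer end of the neighbouring protein-coding gene Mes2 was 450 bp from mir-9388, so that the same summits were 497 and 532 bp from Mes2. Within 10000 bp of mir-9388 neither list held another summit.

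mir-279 (3R, 29215585 to 29215684) is known, together with its relative mir-996, for preventing the formation of extra carbon dioxide-sensing neurons. Its summits at 29214892 (63 fragments, replicate 1) and 29214916 (119 fragments, replicate 2) lay 693 and 669 bp from the gene. Their heights differed more between the lists than those of any other pair. The gene sits within the non-coding gene CR31044, and the nearest protein-coding gene, eEF1gamma, a subunit of a translation elongation factor, was 4488 bp from mir-279 and 5280 and 5256 bp from the summits. mir-996 lies in the same cluster and has the same seed as mir-279. The nearest summits to mir-996 were those of mir-279, 2292 and 2268 bp away, so mir-996 was not reached. A further pair, with 80 and 114 fragments, lay 7560 and 7512 bp from mir-279 inside Cisd2.

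mir-276b (3L, 10319785 to 10319883) and mir-993 (3R, 6776333 to 6776451) also lay inside non-coding genes, CR46004 and CR42721, far from coding genes. The mir-276b summits at 10320612 (101 fragments, replicate 1) and 10320625 (90 fragments, replicate 2) were 729 and 742 bp from the gene, and the nearest coding gene, the odorant receptor gene Or67d, was 45161 bp from mir-276b. No other summit of either list lay within 10000 bp. Its close relative mir-276a, known for a role in olfactory memory, lay 44616 and 44603 bp from any summit in replicates 1 and 2.

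mir-993 is a relative of mir-10 in the Antennapedia complex, the group of Hox genes that sets identities of the head and anterior trunk. Its summits had 84 fragments at 6776003 in replicate 1 and 80 fragments at 6775994 in replicate 2, 330 and 339 bp from the gene. The nearest coding gene was Ama, 11072 bp away. A lower pair lay 2179 and 2168 bp from mir-993, with 32 and 28 fragments. mir-10 itself lies 7078 bp from the Hox gene Dfd and was not reached. Its nearest summits had 79 fragments at 1737 bp in replicate 1 and 96 fragments at 1103 bp in replicate 2. Hence 1 of the 4 Hox complex miRNAs listed was reached in both replicates, beside 6.54% of all miRNA genes. mir-iab-4 and mir-iab-8 of the bithorax complex, which share 1 span, were 7271 bp (replicate 1) and 7358 bp (replicate 2) from a summit.

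mir-989 (2R, 14145351 to 14145524), which is needed for the migration of border cells in the ovary, was the remaining intergenic gene. Its summits had 74 fragments at 14145192 in replicate 1 and 91 fragments at 14145179 in replicate 2, 159 and 172 bp from the gene. The gene lies between Prosap, whose product is a scaffold protein of synapses, and Rcd1, which were 4449 and 2739 bp away. A higher pair, with 103 and 98 fragments, lay 2420 and 2452 bp from mir-989, also between Prosap and Rcd1.

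**Figure D5:**
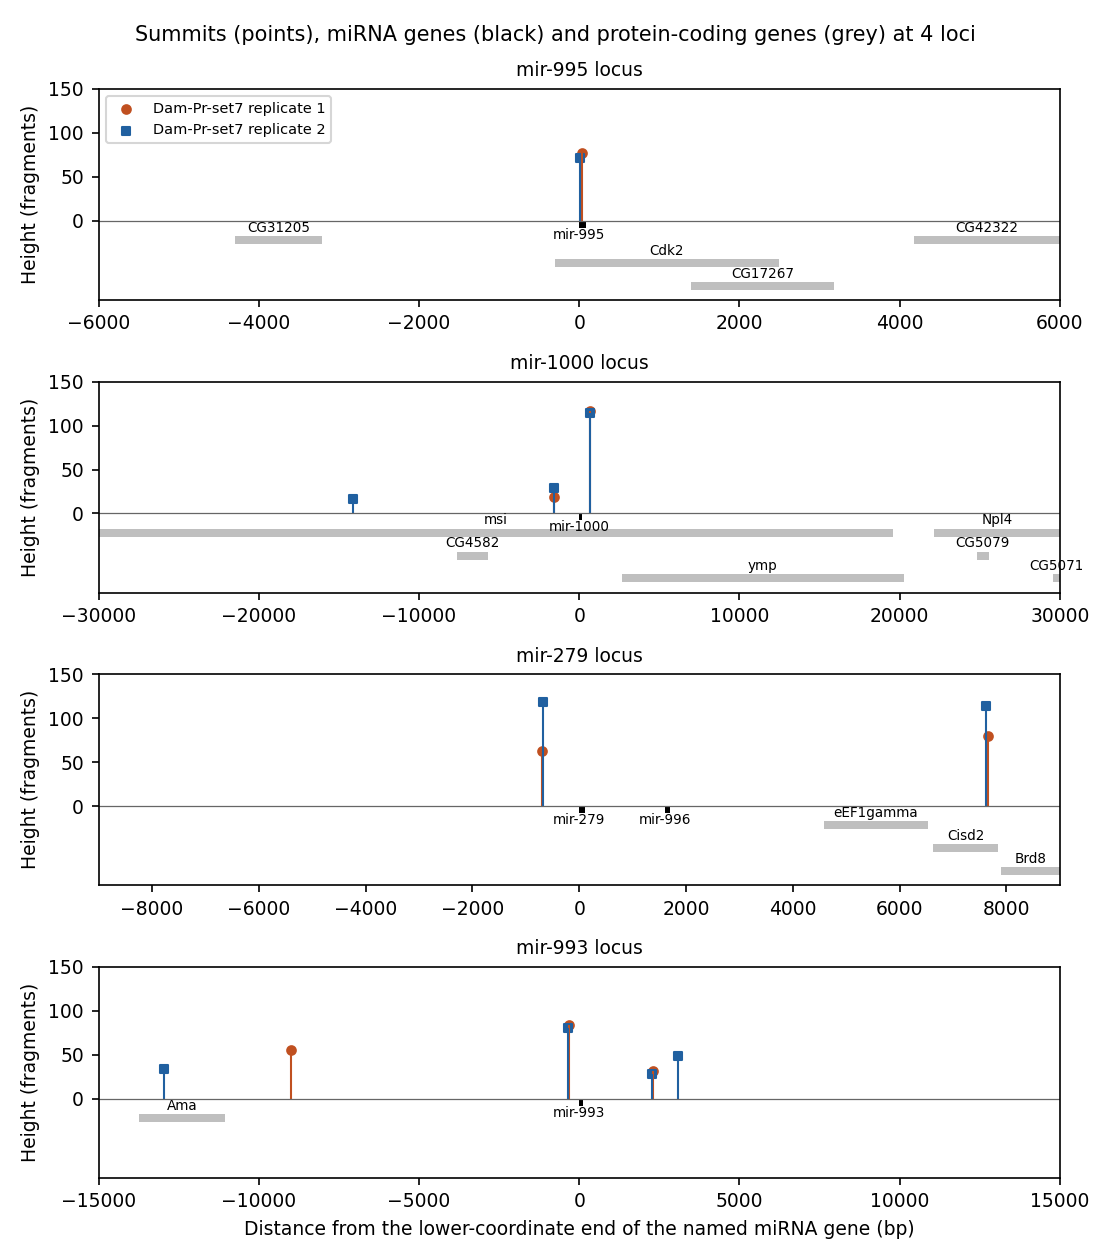
Summit heights in fragments (y axis) along the mir-995, mir-1000, mir-279 and mir-993 loci, by distance from the lower-coordinate end of the named miRNA gene in bp (x axis); circles are Dam-Pr-set7 replicate 1, squares replicate 2, black bars miRNA genes (short ones widened to be visible) and grey bars protein-coding genes. The mir-995 summits, with 77 and 72 fragments, lie on the miRNA gene inside Cdk2, whereas those of mir-279 and mir-993 stand between protein-coding genes. Other non-coding genes are not drawn.

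Among the intragenic genes, mir-995 was the 1 with summits inside it. mir-995 (3R, 20735923 to 20736012) lies inside Cdk2, the gene of the cyclin E partner kinase that drives entry into S phase. Its summits at 20735956 (77 fragments) and 20735928 (72 fragments) in replicates 1 and 2 were the single summits inside Cdk2 in each list. They were 333 and 305 bp from the nearest end of that 2792 bp gene, so that host end and miRNA cannot be told apart as the thing marked. The relatives of mir-995 by seed were far from summits. mir-998, inside the cell cycle transcription factor gene E2f1, was 38017 and 36399 bp away, and mir-285, between genes, 55335 and 39707 bp away.

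mir-1000 (3R, 25588859 to 25588958), a neuronal miRNA that limits the glutamate transporter of synaptic vesicles, lies in the 92306 bp gene msi, which encodes the RNA-binding protein Musashi of asymmetric cell division. Its summits had 117 fragments at 25589503 in replicate 1 and 114 fragments at 25589535 in replicate 2, 545 and 577 bp from the miRNA gene. They were the highest of 2 and 3 summits inside msi in replicates 1 and 2. The ends of msi were 18920 and 18888 bp away. The nearest end of any coding gene belonged to ymp, which overlaps msi, at 1999 and 1967 bp.

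mir-2282 and mir-4978 lie deep inside genes of signalling regulators. mir-2282 (3L, 3412145 to 3412251) is in sty, which encodes Sprouty, an inhibitor of receptor tyrosine kinase signalling. Its summits had 115 fragments at 3412088 in replicate 1 and 104 fragments at 3412106 in replicate 2, only 57 and 39 bp from the miRNA gene. They were the highest of 2 and 3 summits inside sty and more than 10 kb from its ends (10935 and 10953 bp). mir-4978 (2R, 14005860 to 14006006) is in mam, the gene of the Notch coactivator Mastermind. Its summits had 120 fragments at 14006157 and 97 fragments at 14006168 in replicates 1 and 2, at 151 and 162 bp. In mam they ranked behind a higher summit in each list, of 219 and 182 fragments.

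In the long genes bun and Mmp2 the miRNA summits were also second in height and lower than at the genes above. mir-967 (2L, 12460004 to 12460100) lies in bun, the gene of a TSC22 family growth regulator, and had 40 fragments at 12460504 in replicate 1 and 50 at 12460526 in replicate 2. The highest summits inside bun had 78 and 60 fragments. mir-307a (2R, 9621251 to 9621338) and mir-307b (9621234 to 9621353) overlap in Mmp2, which encodes a matrix metalloproteinase. Their shared summits had 42 fragments at 9622103 in replicate 1 and 37 at 9622089 in replicate 2, against a highest summit in Mmp2 of 140 and 125 fragments.

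The remaining 5 intragenic genes lie in hosts of 2109 to 10970 bp, and each host held 1 summit per list. mir-2501 (3L, 8111107 to 8111177) in Nulp1 had the highest of them, 119 fragments at 8110588 in replicate 1 and 122 at 8110590 in replicate 2. These lay 519 and 517 bp from the miRNA gene but 220 and 222 bp from the nearest end of Nulp1. mir-3643 (2R, 17766393 to 17766460) is in OstDelta, the gene of an oligosaccharyltransferase subunit. It had 71 fragments at 17766806 in replicate 1 and 40 at 17766830 in replicate 2, with 264 and 240 bp to the end of OstDelta. mir-4977 (2R, 7406733 to 7406837) is in Eaf, whose product associates with the elongation factor ELL, and had 44 fragments at 7407610 and 64 at 7407602 in replicates 1 and 2. mir-2497 (2L, 16678240 to 16678335) is in the sex determination gene her and had 28 fragments at 16677646 and 37 at 16677661. mir-4909 (2R, 7711417 to 7711476) is in CG1941 and had 36 fragments at 7710880 and 40 at 7710894. At mir-2501, mir-3643, mir-4977 and mir-2497 the summits of both replicates were nearer to an end of the host than to the miRNA gene. When only summits at least as near to the miRNA gene as to any coding gene end were counted, the other 13 miRNA genes were kept.

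Of the 16 summit pairs at miRNA genes, 6 lay within 1000 bp of a protein-coding gene end in each replicate, those of mir-995, mir-2497, mir-2501, mir-3643, mir-4977 and mir-9388. The mir-4909 pair was just beyond, 1007 and 1021 bp from an end of CG1941. Among all summits with a partner within 500 bp, 56.6% did so in replicate 1 and 56.6% in replicate 2. The hosts themselves were often reached. Of the 148 distinct protein-coding genes that hold a miRNA gene, 58 (39.2%, 31.3 to 47.5%) had a summit of both replicates within 1000 bp of their span, against 18.0% of the other 13774 protein-coding genes. Host genes are long, with a median of 14201 bp. From 5000 up to 20000 bp the shares were 37.2% of 43 hosts (23.0 to 53.3%) and 24.4% of 2426 other genes. At 20000 bp and above they were 55.9% of 59 hosts (42.4 to 68.8%) and 45.2% of 953 other genes, and below 5000 bp 19.6% of 46 hosts (9.36 to 33.9%) and 14.0% of 10395 other genes. A summit at the host did not usually mean one at the miRNA. Of the 72 intragenic miRNA genes with a host reached in both replicates, 12 were reached in both themselves, 8 in 1 replicate and 52 in neither. By this rule the host of a reached miRNA gene is always reached too. The window around a miRNA gene, about 2092 bp, is also short beside the median host.

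By arm, genes reached in both replicates numbered 7 of 55 on 2R, 4 of 31 on 3L, 4 of 58 on 3R and 2 of 56 on 2L. On X it was 0 of 58 (exact 95% interval up to 6.16%), and on chromosome 4 it was 0 of 2. Protein-coding genes were reached in both at 19.5% on 2R, 18.8% on 3L, 18.5% on 3R, 18.4% on 2L, 14.5% on X and 35.0% on chromosome 4. The 4 X-linked miRNA genes with any summit were mir-982, mir-303, mir-3645 and mir-210, all in replicate 2 only. Off X, 17 of 202 miRNA genes were reached (8.42%, 4.98 to 13.1%).

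Joining genes within 10000 bp of each other gave 198 loci, 27 of which held more than 1 gene and 89 genes in all. Of these 27 clusters, those of mir-307a with mir-307b and of mir-279 with mir-996 held a gene reached in both replicates, while over all 198 loci 16 did so (8.08%). The 12-gene cluster from mir-972 to mir-979 on X had no summit nearer than 3820 bp in replicate 1 and 3842 bp in replicate 2. The 8-gene mir-309 cluster, which clears maternal transcripts in the embryo, had none nearer than 74831 and 5734 bp.

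Over all miRNA genes 84.6% were reached in neither replicate, and the lists of well studied miRNAs are to be read beside that share. Of 24 miRNAs listed for neural roles, mir-279 and mir-276b were reached in both replicates, mir-184 and mir-210 in replicate 2 only and 20 in neither. Of 22 listed for growth, cell death and insulin signalling, none was reached in both, and mir-184 was reached in replicate 2 only. At bantam (mir-ban in RefSeq), which promotes growth and blocks cell death, the nearest summits were 12558 and 12554 bp away with 138 and 139 fragments in replicates 1 and 2. The 3 miRNAs of the let-7 complex, which time developmental transitions, shared a nearest pair of summits at 18468720 (43 fragments) and 18468722 (50 fragments) on 2L. That pair was 2714 and 2712 bp from mir-100, 3314 and 3312 bp from let-7 and 3595 and 3593 bp from mir-125.

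mir-124, an abundant neuronal miRNA, had a summit of 40 fragments at 1691 bp in replicate 2, but none nearer than 25085 bp in replicate 1. mir-9a, which restrains sensory organ formation, was 14086 and 15586 bp from a summit in replicates 1 and 2. mir-92a and mir-92b, both inside jigr1 and of which mir-92a helps maintain neural stem cells, were 15264 and 10367 bp from a summit in replicate 1 and 15272 and 10375 bp in replicate 2. These neural genes thus lay outside the window by very different margins.

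mir-7, inside HnRNP-K and active in photoreceptor development, was 11923 and 11874 bp from a summit in replicates 1 and 2. mir-8, a regulator of growth through the fat body, was 30266 and 26187 bp away, and mir-34, linked to ageing of the brain, 16574 and 7486 bp. For mir-14, which suppresses cell death, the distances were 23949 and 24659 bp, and for mir-278, which acts in energy balance, 22044 and 22114 bp. All 5 were thus kilobases from the nearest summit in both lists.

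Genes reached in 1 replicate only mostly had low summits. In replicate 2, 20 such genes rested on 13 distinct summits with a median height of 18 fragments (16 to 151), and 10 of these 13 were below the list median. The 5 genes with the highest were mir-1010 (151 fragments at 194 bp, inside SKIP), mir-1008 (86 fragments at 466 bp, inside CG18004), mir-210 (38 at 655 bp), mir-3645 (32 at 678 bp; the miRNA gene lies inside Mlc-c and the summit inside Pop1) and, with 23 fragments, mir-184 at 151 bp, level with the cluster from mir-959 to mir-962 inside DIP-theta. The mir-1010 and mir-1008 summits were thus well above the median height of 37, while replicate 1 had no summit nearer than 13406 bp to mir-1010 and 8593 bp to mir-1008. Low single summits were shared by mir-310, mir-311, mir-312 and mir-313 (18 fragments, inside the neighbouring gene qsm) and by mir-982 and mir-303 (18 fragments).

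In replicate 1 alone, 3 genes were reached, all by summits below the list median of 42. These were mir-4918 in tex (34 fragments at 23 bp), mir-9376 (20 at 537 bp) and mir-1, the muscle miRNA (17 at 897 bp). Replicate 2 had no summit nearer than 39273 bp to mir-4918, 22420 bp to mir-9376 and 14560 bp to mir-1. None of the 14 genes from mir-1003 to mir-1016, which are known as mirtrons because they are made by splicing of short introns, was reached in both replicates. Of these only mir-1008 and mir-1010 were reached, in replicate 2. Over all miRNA genes 6.54% were reached in both and 7.69% in replicate 2 only. This group was chosen after its values were seen. Any mirtrons outside this range of numbers were not counted, so the values do not describe mirtrons as a class.

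For genes reached in both replicates, the limit of 1000 bp fell in a gap, but in replicate 2 alone it did not. Taking the larger of the distances in the 2 replicates, the members just inside the limit were mir-4977 (773 bp), mir-307a (765 bp) and mir-307b (750 bp). Those just outside were mir-9383 (1136 bp), mir-4957 (1220 bp) and mir-9380 (1309 bp). In replicate 2 alone, mir-9380 (944 bp) and mir-313 (958 bp) were just inside the limit. In that list mir-4950 (1011 bp) and mir-2489 (1072 bp) were just outside, so the replicate 2 count depends on the exact limit.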

How the data were processed

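Targeted DamID was measured in 4 samples, of which the 2 Dam-Pr-set7 samples were used. Per the labels' protocols, DNA was cut by DpnI, amplified by PCR and sequenced on a MiSeq after PCR-free library preparation. The tools named in the submitters' processing notes are MACS 1.4.2, Bowtie2 2.2.6 and bcl2fastq 2.19.0.316, with build dm6. Peak cutoffs, the duplicate filter and any control are not given in the sources used here. Signal values as deposited by the authors, 1 per summit of 1 bp, have no header. They were read as the pileup height in fragments, from the layout of MACS summit lists. Each sample has its own list, and depth is unknown.

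Summits on 6 arms (2856 of 2876 and 4240 of 4281) were compared with gene spans from RefSeq (assembly Release 6 plus ISO1 MT, which is dm6). Of 262 miRNA genes, 2 listed on both X and Y were left out. Gene strand, exons and sequences were not used here. Height percentiles are mean ranks within a list. Groups came from the genotype; replicate numbers follow order of deposit. Nothing states that samples came from separate animals. Only 1 group entered, so no test was made; intervals are exact Clopper-Pearson 95% intervals and cover counting error only.

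The members, lists and alternatives were chosen with earlier results of these data known. Of the lists, the neural (24), growth (22), Hox (4), muscle (2), mir-309 (8), let-7 (3) and mir-310 and mir-92 (9) lists matched in full, and the testis list in 23 of 24. Named genes are those reached in both replicates, 20 fixed miRNAs, the 5 highest per single replicate and the 3 on each side of the limit. Relatives and clusters of these, and genes near the limit in replicate 2, are also named. Distances of 200, 500 and 2000 bp, replicates left out and other rules were tried. Computations ran in Python 3.11.15 with SciPy 1.17.1, pandas 2.3.3, numpy 2.4.6 and, for plots, matplotlib 3.10.9, and the distance functions were tested on simulated data.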

Additional observations from a re-analysis of the deposited data

How the results depend on the processing

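The number of miRNA genes reached in both replicates followed the distance. It was 5, 8 and 30 within 200, 500 and 2000 bp, against 17 within 1000 bp. Among intragenic genes it was 3, 5 and 21 (12 within 1000 bp) and among intergenic genes 2, 3 and 9 (5 within 1000 bp). A summit in either replicate gave 40 genes, 23 intragenic and 17 intergenic. Leaving out 1 replicate gave 20 to 37 genes, 13 to 22 intragenic and 7 to 15 intergenic, with the higher number each time from replicate 2 alone. Outside every gene of any kind except miRNA genes, 2 of 51 miRNA genes were reached, mir-989 and mir-9388. Requiring paired summits within 500 bp, summits at or above the median height, or counting clusters once gave 17, 14 and 16. The miRNA share of 6.54% differed by -11.7 percentage points from that of protein-coding spans and by -7.76 from that of protein-coding gene ends. The sign reversed against tRNA, snoRNA and snRNA genes (3.15 points) and against all bases (3.55 points). The cause was not tested. The alternatives that count summits nearer the miRNA than a coding end (13 genes) and leave out the mir-10404 genes (17 genes) were added after seeing the data. A same-strand host was not run, since gene strand was not used. No paired analysis was possible because only the Dam-Pr-set7 group entered and the labels give no replicate numbers. Depth is unknown, which limits any statement on missing summits.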

Other observations

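Lists not described above gave the values below, to be read beside the shares of all miRNA genes. Of these, 6.54% were reached in both replicates, 7.69% in replicate 2 only and 3 of 260 in replicate 1 only. Among 23 matched miRNAs listed for fast-evolving testis clusters, 0 were reached in both replicates and 6 in replicate 2 only. One listed gene, mir-2281, has no other miRNA gene within 10000 bp. Those reached were mir-959, mir-960, mir-961, mir-962, mir-982 and mir-303, which rest on 2 distinct summits of 23 and 18 fragments. Near the first of these, replicate 1 had a summit of 17 fragments 1312 bp from mir-959. Among the 9 miRNAs of the mir-310 cluster and the related mir-92 family, 0 were reached in both and 4 in replicate 2 only. These 4 share the same summit of 18 fragments. mir-991 and mir-992 are on both this list and the testis list. Of the muscle miRNAs, mir-1 was reached in replicate 1 only and mir-133 in neither.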
